A study of Xenopus laevis with 12 samples.

Results

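Expression of 9 genes of melanin synthesis and of pigment cells was followed in whole brains of Xenopus laevis tadpoles: gpnmb.L (NCBI Gene number 733250), dct.L (100381161), pmel.L (734169), pmel.S (445868), mlana.L (108714207), slc24a5.L (108711395), tspan36.L (398992), ednrb2.S (379394) and tyrp1.L (380184). They are 9 of the 37018 genes in the count tables and were picked by gene number, after their levels in thioridazine-exposed and control brains had been seen. The exposed-against-control values of the 9 genes below are therefore descriptions, given with the error of the fit. Calls among the 9 by the tests over all genes are counted below, but add no support. The suffixes .L and .S mark the long and short subgenome copies of this allotetraploid frog. Nieuwkoop-Faber (NF) stages 45 and 47, both tadpole stages before metamorphosis, were sampled, with 3 libraries in each of 4 groups. The control groups were wild-type animals without drug. The exposed groups had been kept in 90 µM thioridazine, an antipsychotic drug of the phenothiazine class and a dopamine receptor blocker, between NF 14 and NF 26, and are labelled as having brain abnormalities caused by the drug. Controls shared the rearing temperatures, 18 °C during the exposure window and 14 °C otherwise until feeding began, at 50 embryos in 10 mL. The number of brains and the clutches behind a library are not in the labels, which only number biological replicates, so p-values measure the spread between these libraries.

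Melanin is made inside melanosomes, organelles related to lysosomes, in neural crest-derived melanophores of the skin and around the brain and in the pigment epithelium of the retina. Tyrosinase starts the synthesis from tyrosine, and the related enzymes encoded by dct and tyrp1 act on later intermediates. The pmel protein forms the fibrils on which melanin is laid down, mlana takes part in melanosome maturation, and slc24a5 is an ion exchanger needed for normal pigmentation in zebrafish and mammals. The gene gpnmb encodes a glycoprotein related to pmel that is made by pigment cells and also by macrophages, tspan36 encodes a tetraspanin membrane protein, and ednrb2 encodes an endothelin receptor of pigment cell precursors in birds, fish and frogs. In bulk tissue, fewer pigment cells and less RNA per pigment cell cannot be told apart.

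The libraries held between 12843954 and 18164871 counted reads. Levels are CPM, counts scaled to a common library total that was adjusted by the trimmed mean of M values (TMM), and since they are not corrected for gene length they are compared only within a gene. All 9 genes passed the filter on low counts. Their deposited counts ran from 21 reads, for mlana.L in control NF 47 library 1, to 1941 reads, for tyrp1.L in exposed NF 45 library 1. A count of 21 has an exact 95% Poisson interval from 13 to 32.1, which covers counting error only. Pan-neuronal markers summed to 3374 to 4825 CPM in the 12 libraries. Both NF 45 libraries numbered 2 stood apart from the other 10, at 104 and 118 on the first principal component against -56.2 to 9.60. Their skin marker sums of 331 CPM in the control and 272 CPM in the exposed library compare with 1364 to 4584 CPM elsewhere. A further pair of NF 45 libraries was high in photoreceptor genes, with sums of 934 CPM in control library 3 and 776 CPM in exposed library 1 against 67.5 to 220.9 CPM in the remaining 10. Control library 3 at NF 45 also held 79.1 CPM of lens genes, against 6.49 to 9.35 CPM in the other 11. Same-numbered control and exposed libraries of a stage deviated together from their group means, so they are read as pairs below. At NF 45 both outlying libraries numbered 2 enter these means, which by itself shifts libraries 1 and 3 of both groups alike. The NF 45 libraries high in photoreceptor genes bore different numbers, so the pairing of libraries 1 and 3 at that stage is uncertain.

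Dopachrome tautomerase, encoded by dct.L, converts an intermediate of the eumelanin branch. At NF 45 its level was 4.63, 5.24 and 10.6 CPM in control libraries 1, 2 and 3 and 19.03, 13.6 and 17.03 CPM in exposed libraries 1, 2 and 3. At NF 47 it was 2.09, 2.77 and 4.43 CPM in controls and 6.09, 4.52 and 12.5 CPM in exposed libraries. Every exposed library lay above every control of its stage, narrowly so at NF 47, where the lowest exposed and the highest control library nearly met. The log2 fold change from control to exposed was 1.28 ± 0.42 at NF 45 and 1.32 ± 0.43 at NF 47 (estimate ± SE).

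The second enzyme gene, tyrp1.L, encodes tyrosinase-related protein, which acts late in eumelanin synthesis in the mouse. Its NF 45 levels were 63.4, 41.8 and 98.6 CPM in controls and 147, 78.6 and 85.9 CPM in exposed libraries. Its NF 47 levels were 26.9, 48.97 and 66.3 CPM in controls and 48.02, 59.4 and 101 CPM in exposed libraries. The groups overlapped at both stages, and at NF 45 exposed library 3 lay below control library 3. The log2 fold change was 0.61 ± 0.43 at NF 45 and 0.56 ± 0.43 at NF 47, smaller than for dct.L, though this difference between the 2 genes was not tested.

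Both copies of pmel were among the 9 genes. At NF 45, pmel.L stood at 56.8, 39.95 and 78.2 CPM in controls and 115, 72.6 and 72.2 CPM in exposed libraries. At NF 47, pmel.L stood at 19.1, 34.1 and 55.8 CPM in controls and 43.3, 40.8 and 89.3 CPM in exposed libraries. Control and exposed values of pmel.L overlapped at each stage, with control library 3 among the higher values. The short copy, pmel.S, had NF 45 levels of 44.2, 40.5 and 71.8 CPM in controls and 107, 69.995 and 74.03 CPM in exposed libraries. Its NF 47 levels were 10.9, 19.997 and 43.7 CPM in controls and 28.6, 38.4 and 83.3 CPM in exposed libraries. Here too the groups overlapped, although each exposed library was above its own same-numbered control. The log2 fold changes were 0.57 ± 0.43 and 0.67 ± 0.44 for pmel.L and 0.68 ± 0.52 and 1.01 ± 0.53 for pmel.S at NF 45 and NF 47. The NF 47 value of pmel.S was 0.43 without exposed library 3 and 1.71 without control library 3 of that stage.

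The melanosome protein gene mlana.L was at 2.24, 2.62 and 5.005 CPM in NF 45 controls and at 9.93, 7.14 and 8.57 CPM in NF 45 exposed libraries. At NF 47 it was at 1.25, 2.64 and 3.24 CPM in controls and 3.14, 4.23 and 7.68 CPM in exposed libraries. The groups were apart at NF 45 and overlapped at NF 47, where exposed library 1 lay just below control library 3. Its log2 fold changes were 1.38 ± 0.42 and 1.08 ± 0.43.

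The exchanger gene slc24a5.L kept its groups apart. Controls were at 3.84, 3.802 and 5.62 CPM and exposed libraries at 9.78, 9.65 and 10.9 CPM at NF 45. At NF 47 the controls were at 2.63, 2.51 and 3.52 CPM and the exposed libraries at 4.23, 3.79 and 7.27 CPM. The groups did not overlap at either stage. The log2 fold change was 1.20 ± 0.27 at NF 45 and 0.82 ± 0.28 at NF 47.

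For the tetraspanin gene tspan36.L, NF 45 levels were 3.76, 3.43 and 7.08 CPM in controls and 8.57, 6.804 and 12.7 CPM in exposed libraries. At NF 47 they were 2.27, 2.904 and 5.42 CPM in controls and 4.49, 4.08 and 12.6 CPM in exposed libraries. Library 3 was the highest of its group in all 4 groups, and control library 3 overlapped the exposed range at both stages. Its log2 fold changes were 0.98 ± 0.49 and 1.01 ± 0.49. The NF 47 value was 0.28 without exposed library 3 of that stage.

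For the glycoprotein gene gpnmb.L, NF 45 levels were 12.96, 16.1 and 15.6 CPM in controls and 27.4, 33.4 and 22.7 CPM in exposed libraries. Its NF 47 levels were 5.26, 8.32 and 11.2 CPM in controls and 13.01, 20.5 and 27.99 CPM in exposed libraries. The groups did not overlap at either stage. At NF 47 both groups spread widely, and the exposed library exceeded its same-numbered control by 2.48-fold, 2.46-fold and 2.503-fold in pairs 1, 2 and 3. The log2 fold change was 0.91 ± 0.29 at NF 45 and 1.31 ± 0.30 at NF 47.

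The receptor gene ednrb2.S was at 25.6, 12.03 and 25.6 CPM in NF 45 controls and 51.9, 20.9 and 30.4 CPM in NF 45 exposed libraries. At NF 47 it was at 11.2, 15.4 and 18.5 CPM in controls and 23.02, 21.5 and 28.3 CPM in exposed libraries. The groups overlapped at NF 45, where both libraries numbered 2 were the lowest of their group, and were apart at NF 47. The log2 fold changes were 0.71 ± 0.35 and 0.70 ± 0.36.

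**Figure D1:**
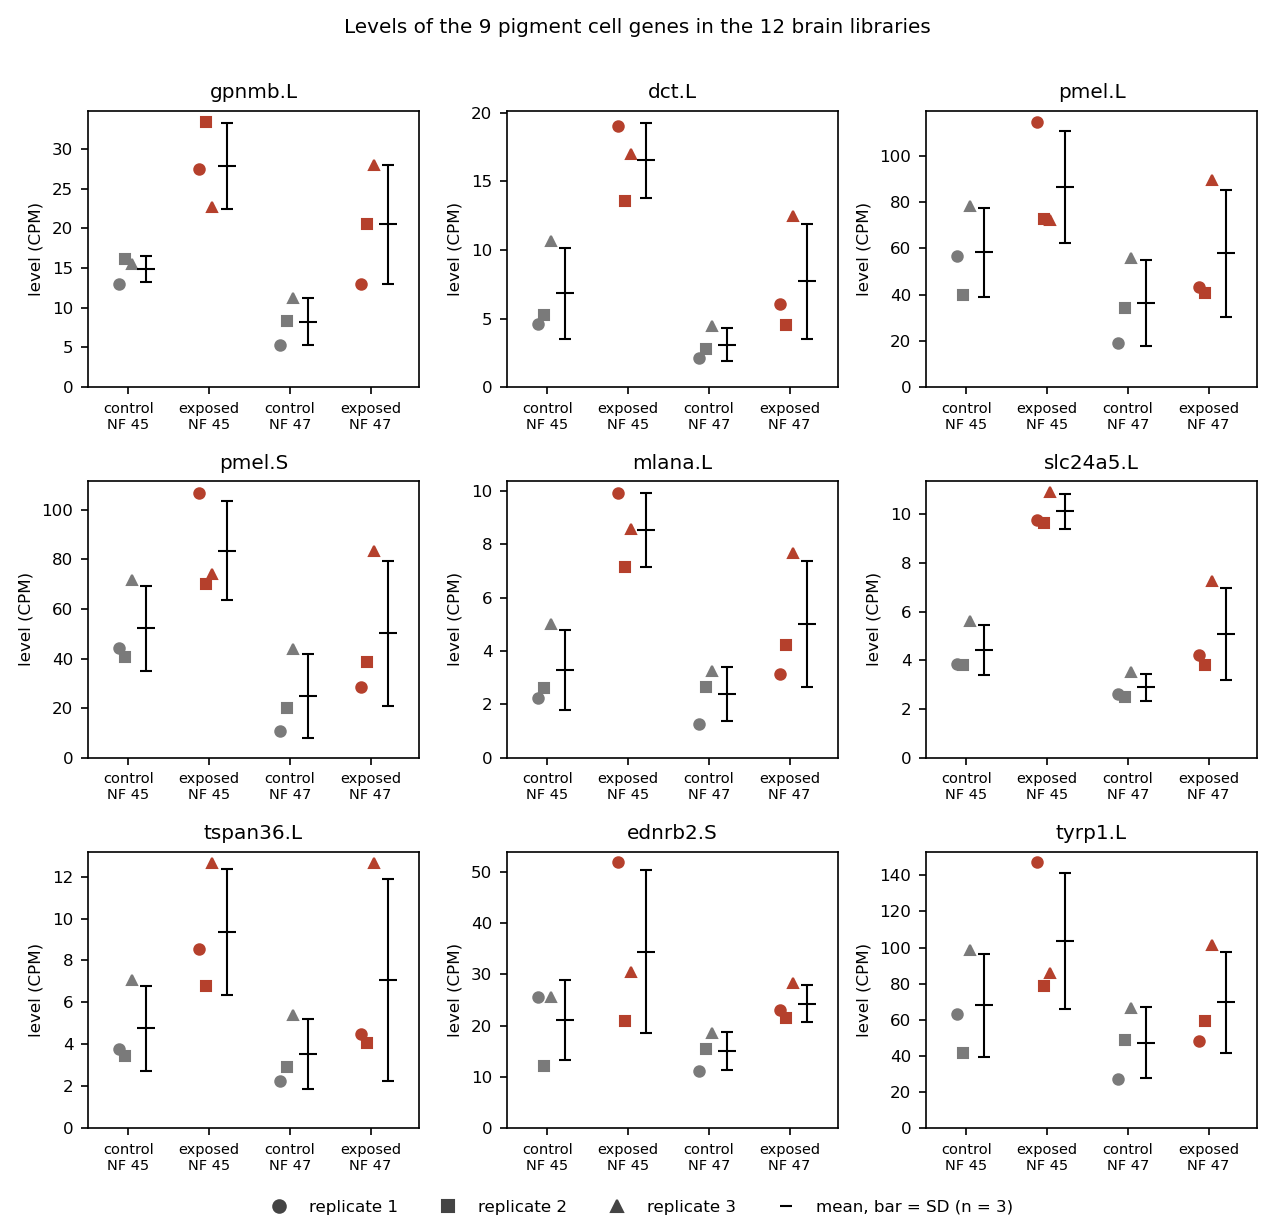
Level of each of the 9 genes in CPM (vertical axis, from 0, scaled per gene) in the 4 groups, with 1 point per library, the marker shape giving the replicate number, and the mean with its SD (n = 3). The exposed means lie above the control means of their stage for all 9 genes, and replicate 3 is the highest library for every gene in both NF 47 groups.

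Seen together, all 9 genes were higher in exposed than in control brains at both stages. The median log2 fold change over the 9 genes was 0.91 at NF 45, 1.01 at NF 47 and 0.99 averaged over both stages, where it corresponds to a 1.99-fold higher level, beside medians of -0.004, -0.001 and -0.002 over all 26570 genes tested. At NF 45 the groups did not overlap for 4 of the 9 genes (gpnmb.L, dct.L, mlana.L and slc24a5.L), and 2.43% of all genes had exposed libraries wholly above the controls. At NF 47 the groups did not overlap for 4 of 9 (gpnmb.L, dct.L, slc24a5.L and ednrb2.S), against 3.81% of all genes. Within pairs, 7 of the 9 genes were higher in the exposed library in all 6 pairs, against 3.1% of all genes. The exceptions, pmel.L and tyrp1.L, were higher in 5 of 6 pairs. Nothing is read from these counts, because the genes were chosen on this contrast.

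The size of the difference varied more between pairs than the shared direction shows. In NF 45 pair 3 the 9 genes ranged from 0.870-fold (tyrp1.L) to 1.95-fold, with a median of 1.46-fold, and 7 of 9 were higher. In NF 45 pair 1 the range was 2.02-fold to 4.42-fold (mlana.L) with a median of 2.32-fold. The other NF 45 pair, number 2, gave a median of 1.98-fold and a range of 1.73-fold to 2.73-fold. At NF 47 the medians were 2.27-fold, 1.51-fold and 2.07-fold in pairs 1, 2 and 3, and all 9 genes were higher in each of these pairs. Over the 6 pairs, dct.L had the highest median fold at 2.71, and ednrb2.S the lowest at 1.63.

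**Figure D2:**
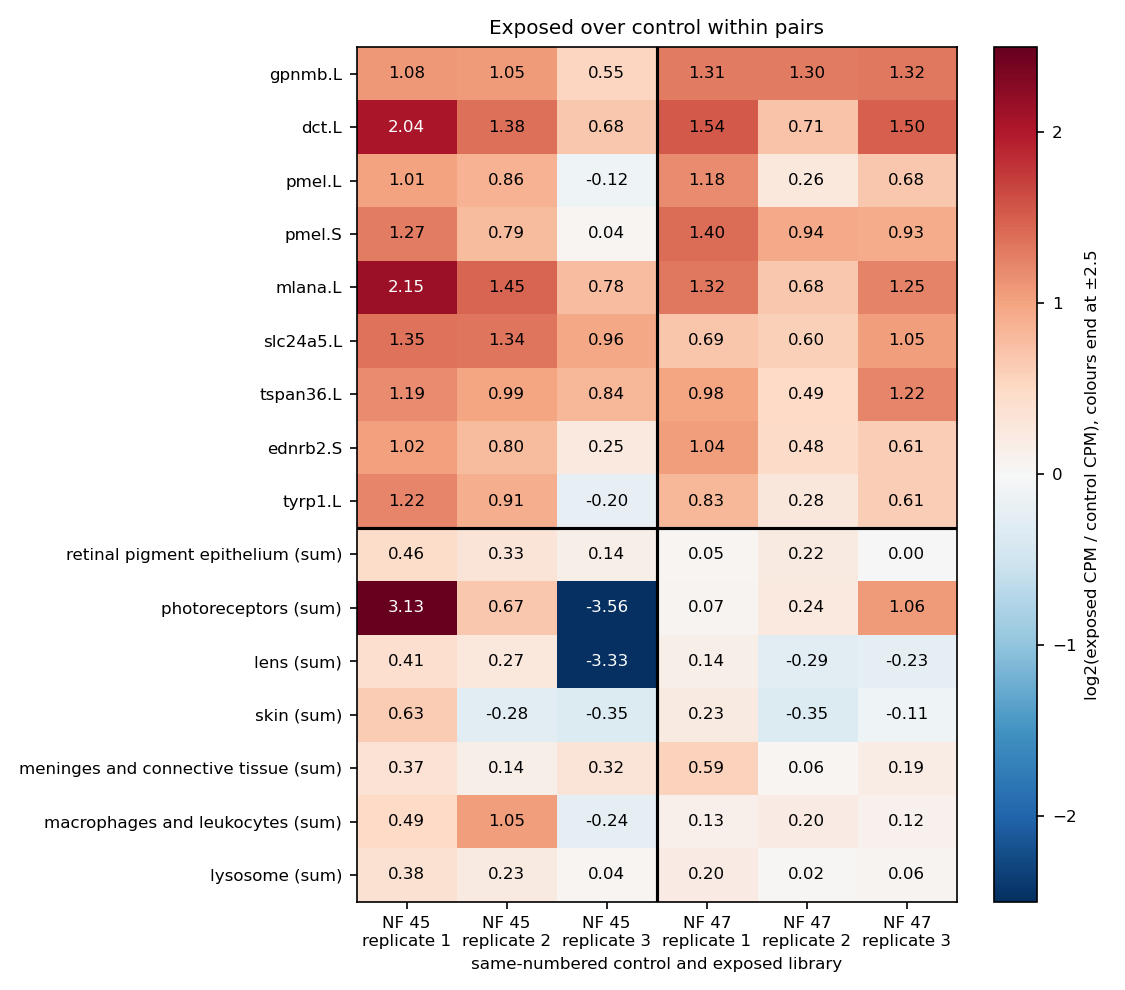
Log2 ratio of exposed to control CPM (colour scale) for each of the 9 genes (upper rows) in each of the 6 same-numbered pairs (columns). The lower rows give sums of the marker lists of retinal pigment epithelium, photoreceptors, lens, skin, connective tissue, macrophages and lysosome, some of them below 0. Most cells of the 9 genes are above 0. Among these genes the 2 cells below 0 are pmel.L and tyrp1.L in NF 45 pair 3, at 0.923-fold and 0.870-fold.

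The fits over all genes made few calls on exposure, and how many depended on the pairing and on the method. With the 4 group means alone, edgeR's quasi-likelihood test called 0 of 26570 genes (0%) at an adjusted p under 0.05 at NF 45, at NF 47 and over both stages, with 526, 291 and 783 genes at an unadjusted p under 0.05. A block for the replicate number inside each stage was also used for the treatment contrasts and the interaction. With it, 1 gene was called higher at NF 47 (0.00376% of genes), and it was gpnmb.L. At NF 45 this block called 6 of 26570 genes, 5 of them higher, and none of the 9 genes was among them. With that block over both stages, 22 genes were called higher (0.0828%), among them 6 of the 9: dct.L, slc24a5.L, mlana.L, ednrb2.S, tspan36.L and gpnmb.L. When both NF 45 libraries numbered 2 were also left out, 13 genes were called higher over both stages (0.0485%), and gpnmb.L was the 1 gene of the 9 among them, so 5 of the 6 calls were lost. DESeq2 without a block called 27 genes higher over both stages (0.101%), among them dct.L, slc24a5.L and gpnmb.L. At NF 45 DESeq2 called 9 genes, all higher and none of them among the 9 studied here, and at NF 47 it called 0. These counts describe the contrast that chose the genes and add no separate support.

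The genes were chosen on treatment and not on stage, though with earlier results of these data known. Their stage values are therefore not fully independent of the choice. The change from NF 45 to NF 47 was tested over all genes in the same 12 libraries. Levels of the 9 genes rose and fell together over these libraries, so their shared direction is not 9 separate results. All 9 genes had lower fitted levels at NF 47 than at NF 45, in controls and in exposed brains alike, and none passed the threshold. The median over the 9 genes was a log2 fold change of -0.61 in controls (0.653-fold) and -0.58 in exposed brains (0.669-fold), beside -0.03 over all genes in each. In controls the difference ran from -0.43 ± 0.50 for tspan36.L to -1.14 ± 0.43 for dct.L. The dct.L mean was 6.83 ± 3.2995 CPM (SD, n = 3) in NF 45 controls and 3.098 ± 1.204 CPM in NF 47 controls, and the groups did not overlap. For gpnmb.L the difference in controls was -0.85 ± 0.30, with means of 14.9 ± 1.67 CPM and 8.25 ± 2.96 CPM. In exposed brains it ran from -0.40 ± 0.48 for tspan36.L to -1.10 ± 0.41 for dct.L, and slc24a5.L was at 10.1 ± 0.71 CPM and 5.097 ± 1.89 CPM, a log2 difference of -0.99 ± 0.27.

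The adjusted p-values of edgeR's quasi-likelihood test for the 9 genes ran from 0.33 to 0.79 in controls and from 0.32 to 0.85 in exposed brains. This test called 0 of 26570 genes (0%) in either stage contrast, while 2965 and 2560 genes had an unadjusted p under 0.05, among them 3 and 2 of the 9. At NF 47 the control libraries lay wholly below those of NF 45 for 3 of 9 genes (gpnmb.L, dct.L and slc24a5.L), against 8.62% of all genes, and the exposed libraries for 2 of 9 (dct.L and slc24a5.L), against 5.98%. DESeq2 called 421 genes in controls (2.16% of those with an adjusted p) and 278 in exposed brains (2.04%), none of them among the 9. In exposed brains it gave no adjusted p for dct.L, mlana.L, slc24a5.L and tspan36.L. Without both NF 45 libraries numbered 2, edgeR called 817 genes in controls (3.05%), again none of the 9. The skin marker list moved the same way, lower at NF 47 in 26 of 31 genes in controls with a median of -0.40 and in 28 of 31 in exposed brains with a median of -0.24. This skin direction was lost with a block for the replicate number across both stages. That fit gave 15 of 31 lower with a median of 0.02 in controls and 13 of 31 lower with a median of 0.08 in exposed brains. The block rests on numbers alone, since same-numbered libraries of the 2 stages deviated together unevenly, with correlations from -0.128 to 0.429. Without the block, the photoreceptor list was lower at NF 47 in 29 of 30 genes in controls and 28 of 30 in exposed brains, with medians of -1.40 and -1.06. With it, the list stayed lower in 29 and 27 of 30, with medians of -1.11 and -1.18. The NF 45 groups include control library 3 and exposed library 1, which were high in these genes. The part of these tissues in the lower levels of the 9 genes was not tested.

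**Figure D3:**
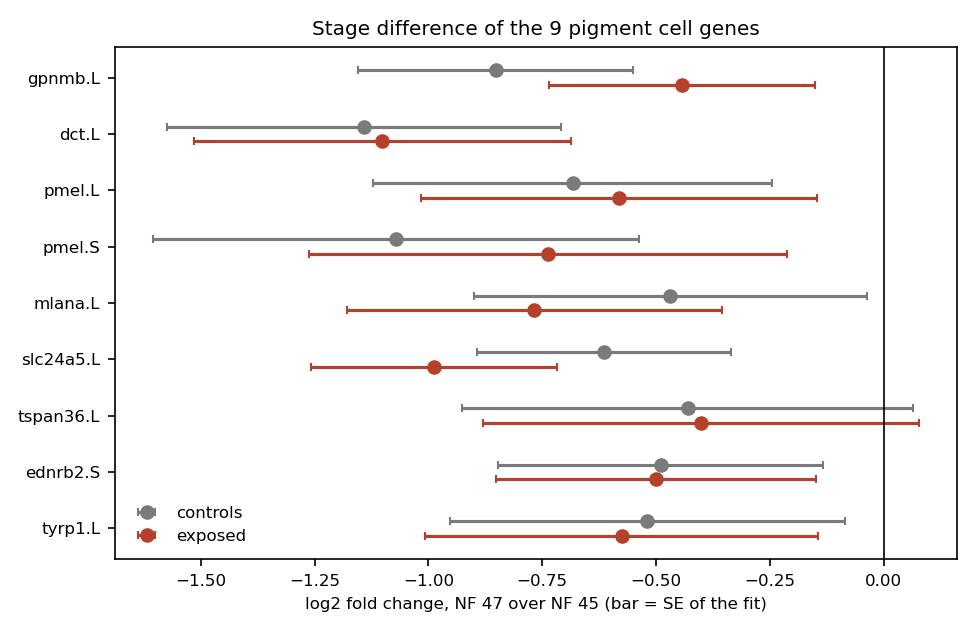
Log2 fold change from NF 45 to NF 47 (horizontal axis, bars give the SE of the fit) for the 9 genes in controls and in exposed brains. The estimates all lie below 0, from -1.14 to -0.40, and none passed an adjusted p under 0.05.

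The difference between exposed and control brains was then compared between the stages, by the interaction in the same fit. It is built from treatment differences that were known when the 9 genes were chosen, so their interaction values are descriptions too. For the 9 genes the interaction on the log2 scale, NF 47 minus NF 45, ran from -0.37 ± 0.39 for slc24a5.L to 0.41 ± 0.42 for gpnmb.L, with a median of 0.03 beside -0.01 over all genes. By edgeR's quasi-likelihood test none of the 9 passed, at adjusted p-values of 1.00, and 0 of 26570 genes (0%) were called, with 91 at an unadjusted p under 0.05 and none of the 9 among them. DESeq2 called 0 as well. The SE of the interaction lay between 0.39 for slc24a5.L and 0.74 for pmel.S, and in simulated counts this test recovered 5% of interactions of 1 and 55% of interactions of 2 on the log2 scale. A difference between the stages as large as 1 would mostly have gone undetected.

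The order of the libraries within groups was shared across the genes. In both NF 47 groups library 3 was the highest for 9 of 9 genes. At NF 45, control library 3 was the highest for 8 of 9, exposed library 1 for 6 of 9, and exposed library 2 was the lowest for 7 of 9. Over the 12 libraries, the Pearson correlation of a gene's log2 CPM with the mean of the other 8 ran from 0.835 for ednrb2.S to 0.964 for dct.L. Among pairs of genes it ran from 0.671 for gpnmb.L with ednrb2.S to 0.974 for dct.L with slc24a5.L. These correlations are descriptions, since the genes share the libraries, their depth and the contrast on which they were chosen.

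The other subgenome copies of the 9 genes behaved unevenly. No row was matched to gpnmb.S, dct.S or mlana.S. The short copy tyrp1.S stayed under the low-count filter, with group means of 0.113 to 0.293 CPM, and the lowest share of the .L copy in tyrp1 reads was 99.6%. The copy tspan36.S was higher in the exposed library in 6 of 6 pairs, with a median of 1.43-fold and a log2 fold change of 0.72 ± 0.26 over both stages that edgeR's quasi-likelihood test did not call (adjusted p = 1.00, and 0.191 with the replicate block). The copy ednrb2.L had a log2 fold change of 0.10 ± 0.20 and was higher in 3 of 6 pairs. The copy slc24a5.S had one of -0.06 ± 0.46 and was higher in 2 of 6. Reads of copies this alike may have been split between them in counting, so values of single copies are uncertain.

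For pmel, where both copies were among the 9, the share of .L in reads of both copies is given as a description, since both were chosen on their treatment values. It was 52.7% ± 3.33 (SD, n = 3) in NF 45 controls, 50.7% ± 1.23 in NF 45 exposed brains, 60.9% ± 4.22 in NF 47 controls and 54.5% ± 4.97 in NF 47 exposed brains. The share was lower in the exposed library in 5 of 6 pairs, by -4.22 ± 4.17 points (mean exposed minus control ± SD). The ednrb2.L share of ednrb2 reads was 51.9% ± 12.4 and 45.6% ± 13.3 in NF 45 controls and exposed brains and 60.0% ± 6.67 and 44.5% ± 10.998 at NF 47. The slc24a5.L share was 59.9% ± 13.97 and 81.4% ± 13.4 at NF 45 and 60.6% ± 14.96 and 68.3% ± 12.8 at NF 47.

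**Figure D4:**
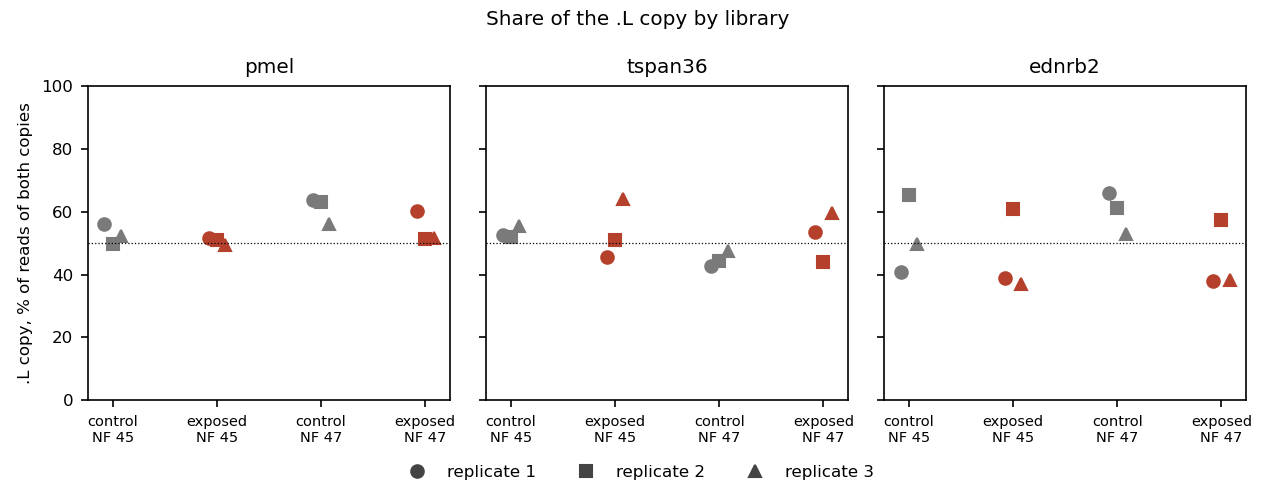
Share of the .L copy in reads of both copies of pmel, tspan36 and ednrb2, in percent (vertical axis, 0 to 100), by group, with 1 point per library. For pmel the shares lie near the line at 50, with group means of 50.7% to 60.9%. Group means of tspan36 run from 44.9% to 53.6%, and the ednrb2 shares spread more widely within groups than those of pmel.

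The other genes of the melanosome pathway were spread about 0. Of the melanin synthesis and melanosome list, 33 genes outside the 9 were tested. Exposed brains had higher values for 20 and lower values for 13, none was called, and the median log2 fold change over both stages was 0.05, beside 0.99 for the 9 genes, which were chosen for their values. The gene of the pigment cell receptor gpr143.S had a log2 fold change of 0.52 ± 0.19 and was higher in 5 of 6 pairs. The genes rab38.L and rab38.S, encoding a small GTPase that brings enzymes to the melanosome, were at 0.53 ± 0.28 and 0.55 ± 0.27, and the transporter gene slc45a2.L was at 0.25 ± 0.27. These 4 were named after their values were seen. All 4 are among the 20 higher genes, and none of the 13 lower genes was named with them. Their values are therefore not typical of the list, whose median was 0.05. The most abundant genes of the list, ap3d1.L and ap3d1.S, subunits of an adaptor of lysosome-related organelles, were at 0.09 ± 0.10 and 0.07 ± 0.10. In stage contrasts mreg.L, a regulator of melanosome transport, was the 1 gene of this list that DESeq2 called, higher at NF 47 in controls. Genes for tyrosinase itself and oca2 were not analysed here.

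**Figure D5:**
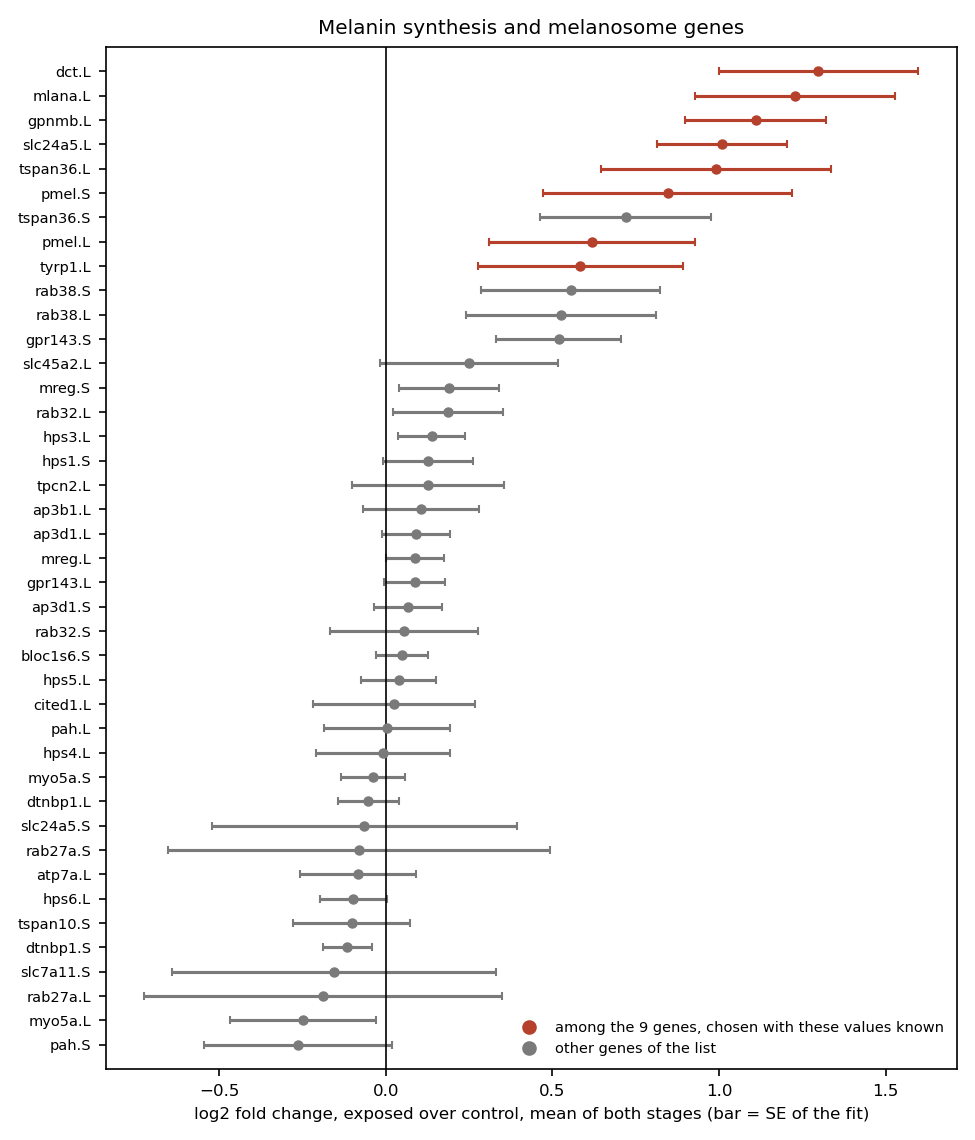
Log2 fold change of exposed over control brains, averaged over both stages (horizontal axis, bars give the SE of the fit), for the tested genes of the melanin synthesis and melanosome list, with those among the 9 genes in red. The 33 other genes have a median of 0.05 and none was called.

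Genes that specify pigment cells were also spread about 0. Of 31 genes tested outside ednrb2.S, 20 were higher and 11 lower in exposed brains, none was called by edgeR over both stages, and the median log2 fold change was 0.07. Transcripts of mitf.S, the master regulator of pigment cell genes, were near 1 CPM, with means of 0.62 and 0.98 CPM in NF 45 controls and exposed brains and 0.56 and 0.84 CPM at NF 47, a log2 difference of 0.61 ± 0.33. The neural crest and glial gene sox10 was at 0.16 ± 0.15 for the .L copy and 0.11 ± 0.14 for the .S copy. The neural crest gene pax3 was at -0.02 ± 0.11 for pax3.L and -0.08 ± 0.11 for pax3.S. DESeq2 called tfap2b.S, encoding an AP-2 transcription factor, lower at NF 47 in exposed brains.

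Genes of melanocortin and melanin-concentrating hormone signalling were lower in exposed brains for 10 of 16 tested, with a median of -0.05 and none called. In the stage contrasts DESeq2 called pcsk2.L and pmch.S higher at NF 47 in both treatments and pomc.L and pomc.S higher in exposed brains. In the xanthophore list, 3 of 7 genes were higher and 4 lower, with a median of -0.01, and none was called. The sum of this list was 0.936-fold to 1.09-fold the control over the 6 pairs. The highest of the 7 values, not typical of the list, was 1.51 ± 0.48 for xdh.S. This gene encodes xanthine dehydrogenase, an enzyme of purine and pteridine metabolism, and was higher in the exposed library in 6 of 6 pairs. Its level was 2.46, 0.187 and 3.70 CPM in NF 45 controls and 8.49, 5.08 and 9.05 CPM in exposed libraries, and 1.97, 4.22 and 5.27 CPM in NF 47 controls and 5.58, 9.77 and 10.5 CPM in exposed libraries. The exposed xdh.S values lay above the controls of their stage, and edgeR's quasi-likelihood test did not call the difference (adjusted p = 1.00, and 0.137 with the replicate block).

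Markers of other tissues were set beside the 9 genes, since several of these genes are also active outside melanophores. Retinal pigment epithelium markers were higher in exposed brains for 12 of 14 genes at NF 45, with a log2 median of 0.30, and for 7 of 14 at NF 47, with a log2 median of 0.01. None of them was called. Their sum ran from 149.5 to 182.1 CPM in NF 45 controls, 187.5 to 231.5 CPM in NF 45 exposed brains, 167.8 to 219.5 CPM in NF 47 controls and 180.0 to 219.6 CPM in NF 47 exposed brains. The visual-cycle isomerase gene rpe65 was at 0.32 ± 0.17 for rpe65.L and 0.26 ± 0.10 for rpe65.S. The sum of this list was 1.00-fold to 1.37-fold the control over the 6 pairs, lowest in NF 47 pair 3. The part of retinal pigment epithelium in the levels of the 9 genes was not tested.

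Photoreceptor genes were higher in exposed brains for 18 of 30 genes at NF 45, with a log2 median of 0.04, and for 28 of 30 at NF 47, with a log2 median of 0.54. None of them was called. They put the NF 45 pairs in the same order as the 9 genes did. That order was not particular to photoreceptors. It also held for the sums of the retinal pigment epithelium, lens, skin and lysosome lists, and not for those of connective tissue and macrophages. The photoreceptor sum was 8.76-fold the control in pair 1, 1.59-fold in pair 2 and 0.0849-fold in pair 3. The 9 genes had medians of 2.32-fold, 1.98-fold and 1.46-fold in these pairs. At NF 47 the order of the photoreceptor sums differed from that of the 9 genes. The sums were 1.05-fold, 1.18-fold and 2.08-fold the control, and the 9 genes had medians of 2.27-fold, 1.51-fold and 2.07-fold. Without control library 3 and exposed library 1 of NF 45, the median log2 fold change of the 9 genes was 0.95 at NF 45 and all 9 were higher. The part of retinal tissue in the levels of the 9 genes was not tested further.

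Marker sums of skin and of meninges and connective tissue, where melanophores lie, differed between libraries. Amounts of these tissues were not measured. The skin list was higher in exposed brains for 14 of 31 genes, with a median of -0.04, and its sum was 0.786-fold to 1.55-fold the control over the 6 pairs. In NF 45 pair 2 the skin sums were 331 and 272 CPM and the connective tissue sums 495 and 545 CPM. The other 4 NF 45 libraries had skin sums of 2404 to 4584 CPM and connective tissue sums of 3205 to 4392 CPM. Connective tissue genes were higher in exposed brains for 22 of 23 genes with a median of 0.26, and their sum was 1.04-fold to 1.501-fold the control. Of these col3a1.S, a fibrillar collagen gene, was called higher with the replicate block over both stages. The part of skin and of connective tissue in the higher levels of the 9 genes was not tested.

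Macrophage and leukocyte markers were set beside gpnmb.L, which macrophages also make. They were higher in exposed brains for 19 of 19 genes at NF 45, with a log2 median of 0.60, and for 16 of 19 at NF 47, with a log2 median of 0.17. None of them was called. The immune adaptor gene tyrobp.L was at 0.79 ± 0.19 over both stages. At NF 45 the sum of the list was 1.41-fold, 2.07-fold and 0.846-fold the control in pairs 1, 2 and 3, where gpnmb.L was 2.12-fold, 2.08-fold and 1.46-fold. At NF 47 the sum was 1.08-fold to 1.15-fold, where gpnmb.L was 2.46-fold to 2.503-fold. The part of macrophages in the levels of gpnmb.L was not tested. Lysosome genes were higher in 21 of 26, with a median of 0.13, and lgmn.L, encoding a lysosomal protease, was called higher over both stages with the replicate block and by DESeq2. In the stage contrasts DESeq2 called ctsl.L and psap.S higher at NF 47 in controls and tpp1.L lower at NF 47 in exposed brains. Among the first 3 markers of each list, none of those matched to a row was at 0 in all 12 libraries.

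Genes outside the 9 whose log2 CPM followed their mean pattern most closely over the 12 libraries were prc1.S, a cytokinesis gene (r = 0.924), the nucleoporin gene nup35.L (0.917), the retinol transporter gene stra6.L (0.911) and tspan36.S (0.905). They were followed by eef2kmt.L (0.900), the mitotic cyclin gene ccnb2.L (0.893), the protease gene ctsk.L (0.892) and hmmr.L (0.890). Each was higher in the exposed library in 6 of 6 pairs, against 3.1% of all genes. That count is tied to choosing them by likeness to the 9 genes, so nothing is read from it. Their log2 fold changes over both stages ran from 0.22 ± 0.13 for ccnb2.L to 0.72 ± 0.26 for tspan36.S. These lay below the median of the 9 genes, which were chosen for their values. The genes most like gpnmb.L alone were chrng.L, a muscle acetylcholine receptor subunit (0.941), MGC69520.S (0.903) and hmmr.L (0.897). These are the highest of many correlations over 12 libraries that share depth and pairing, and no test was made of them.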

How the data were processed

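Whole-brain RNA of 12 tadpole libraries was sequenced as single-end 100 bp reads, per the labels' protocols. Per the submitters' processing notes, HISAT2, HTSeq, Trimmomatic and DESeq2 were used; their versions, the build, strand setting and handling of multiply matching reads are not given in the sources used here. Raw read counts were what the authors deposited, for 37018 NCBI Gene numbers per library, without normalization. Symbols came from the NCBI RefSeq gene table of assembly Xenopus_laevis_v10.1, used for names alone, which matched 33597 numbers holding 99.33% of reads.

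Counts were fitted in R 4.3.3 with edgeR 4.0.16 (filterByExpr, TMM, 4 group means, robust quasi-likelihood test), which kept 26570 genes. P-values received the Benjamini-Hochberg adjustment over all of them, and an adjusted p under 0.05 was called. The median biological coefficient of variation was 20.8%. Log2 CPM used a prior count of 2. DESeq2 1.42.0, RLE scaling, no filter, a replicate block, summed copies and left-out libraries were alternatives. The planned test of copy shares is not reported, because the copies had been chosen on their treatment values.

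Deviations from group means correlated between same-numbered control and exposed libraries by 0.449 to 0.845 at NF 45 and by 0.291 to 0.54 at NF 47, so each of the 6 exceeded the 0.1 set for pairing. At NF 45 the outlying libraries numbered 2 enter both group means and raise these correlations, so they do not establish the pairing of libraries 1 and 3. No label states a shared clutch. Across stages the correlations ran from -0.128 to 0.429, so the block used for the stage contrasts, which ties numbers over both stages, rests on numbers alone. The block for treatment and interaction ties numbers inside a stage.

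The 9 genes, the 15 marker and pathway lists and the tests were chosen with earlier results of these data known. Besides the 9, genes were named as other copies, called list genes, or the first 3 or the 2 most abundant of a list. Others were named by correlation with the 9 (8 genes) or with gpnmb.L (3 genes). The genes gpr143.S, rab38.L, rab38.S and slc45a2.L were named after their values were seen. In simulated counts for 26570 genes, log2 changes of 1 and 2 were recovered at 37% and 69% for the stage contrast in controls, with 4 false calls, at 25% and 70% in exposed brains, with 6, and at 5% and 55% for the interaction, with 3.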

Additional observations from a re-analysis of the deposited data

How the results depend on the processing

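None of the 9 genes was called in the stage contrasts or the interaction under any alternative run. DESeq2 gave no adjusted p for dct.L, mlana.L, slc24a5.L and tspan36.L for stage in exposed brains. By edgeR's quasi-likelihood test the lowest adjusted p of the 9 in these contrasts was 0.0527. It came for stage in exposed brains, with the block and without both NF 45 libraries numbered 2. None of the 9 changed sign in a treatment or stage contrast. Uncalled interaction values did change sign. That of pmel.S was 0.33 in the main fit and -0.25 to 1.03 over single left-out libraries. Medians of the 9 log2 fold changes over single left-out libraries ran from 0.775 to 0.983 at NF 45, 0.477 to 1.37 at NF 47, 0.636 to 1.19 over both stages, -0.434 to 0.394 for the interaction, -0.856 to -0.373 for stage in controls and -1.10 to -0.441 for stage in exposed brains. The values 0.477, 0.636, -0.434 and -1.10 came without thioridazine NF 47 replicate 3. The values 1.37, 1.19, 0.394 and -0.856 came without control NF 47 replicate 3. In both of these libraries all 9 genes were highest of their group. Left-out libraries gave 0 calls over all genes in every contrast but stage in exposed brains, at 0 to 1, and moved the pmel share difference from -5.31 to -2.75 points.

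Over all genes, where edgeR without a block called 0, DESeq2 called 9 at NF 45, 29 over both stages, 421 for stage in controls and 278 for stage in exposed brains. With the replicate block, edgeR called 6 at NF 45, 1 at NF 47, 25 over both stages, 2 for stage in controls and 1 for stage in exposed brains. Without both NF 45 libraries numbered 2 it called 817 and 3 for stage in controls and in exposed brains. With the block and without those libraries, a setting chosen after seeing the data, it called 3 at NF 47, 15 over both stages and 2027 and 568 for the stage contrasts. The setting without the 2 NF 45 libraries high in photoreceptor genes was also chosen after seeing the data, and gave medians of 0.95, 1.01 and 1.13 for the treatment contrasts at NF 45, at NF 47 and over both stages. With both copies summed the treatment medians were 0.84, 0.78 and 0.79 over 8 genes. The cause of these differences was not tested. Low counts, down to 21 reads for mlana.L, limit the precision of the rarer genes.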
